A study of Oryza sativa with 27 samples.

Results

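In developing rice (Oryza sativa) ovaries, 100 probe sets stood lower 1 day after pollination (DAP) than before it and than at 4 DAP, in both tissue parts, and these are described here. They were chosen from 29332 rice probe sets whose mean over all arrays was above 0.264. The score of a probe set is the lower of its unpollinated and 4 DAP group means, minus its 1 DAP group mean, on the log2(value + 0.13) scale, taken in the part where this is smaller. The 100 highest scores made the set. Its shape at unpollinated, 1 DAP and 4 DAP stages is therefore how it was chosen and not a result, and no test is given for those stages. The 2 DAP and 3 DAP arrays had no part in the score and entered the choice only through the mean over all arrays.

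The tissue came from field-grown plants in 2 parts: a larger top part, described by the submitters as mostly endosperm, and a smaller bottom part that contains the embryo. Each part was taken before pollination and at 1, 2, 3 and 4 DAP, and total RNA was hybridised to Affymetrix rice arrays, 1 sample to an array. Of the 27 arrays, the top part had 3 unpollinated, 2 at each of 1, 2 and 3 DAP and 3 at 4 DAP, and the bottom part had 3 at every stage. Arrays of a group are called biological replicates, but the labels do not say which plants they came from or whether samples were pooled, so the spread between them may be partly technical. No cultivar or hour of collection is given there. Every value is a linear intensity divided by the 75th percentile of its own array, so that 1 equals that percentile. In such bulk samples, fewer cells of a type and less RNA per cell cannot be told apart.

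Of the 100 members, 89 have 1 gene in the probe table, 8 have none and 3 are assigned jointly to LOC4352021, LOC4352016 and RBCS1. The 89 belong to 75 genes, of which 64 have 1 probe set among the members and 11 have several (25 members). Only 12 genes, with 19 members, have a name in the gene tables that says what they are, and the other 63 genes are known here by locus number. Most of the 12 work in the chloroplast. Light-harvesting proteins such as RCABP69 (LOC4343583) pass light energy to the photosystems, and OEE3 (LOC4343515) helps the water-splitting complex of photosystem II. Plastocyanin (PETE, LOC4339833) carries electrons to photosystem I, of which PSAH (LOC4339593) is a subunit, and ferredoxin (LOC4344439) takes them on. Rubisco activase (rca, LOC4351224) keeps the carbon-fixing enzyme open, and ALDP (LOC4349897) is an aldolase of the plastid. The remaining names are PSY1 (LOC4342137), phytoene synthase of carotenoid synthesis, LIR1 (LOC4326442), a light-induced chloroplast protein, OsTrxm5 (LOC9270622), a plastid thioredoxin, OsBBD2 (LOC4345362), a nuclease, and the expansin OsEXPA1 (LOC4335222), of a family that makes cell walls extensible. Nuclear genes of photosynthesis are known to be light-regulated, and in young grains of cereals the green layer of the ovary wall is known to carry chloroplasts.

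The bottom arrays numbered replicate 3 at 2, 3 and 4 DAP were treated as standing apart from their groups, and are called below the 3 arrays that stand apart. No measure of this over all probe sets is given here. For the members the one at 3 DAP matters most. It lay below its group mean for 76 of the 100 members, by a median of -0.71 log2, whereas over all probe sets tested 44.0% lay below. The counts below that turn on the array are given with and without it. The members were brighter than most probe sets, with a median mean value of 3.45, against 1.04 for all tested.

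**Figure D1:**
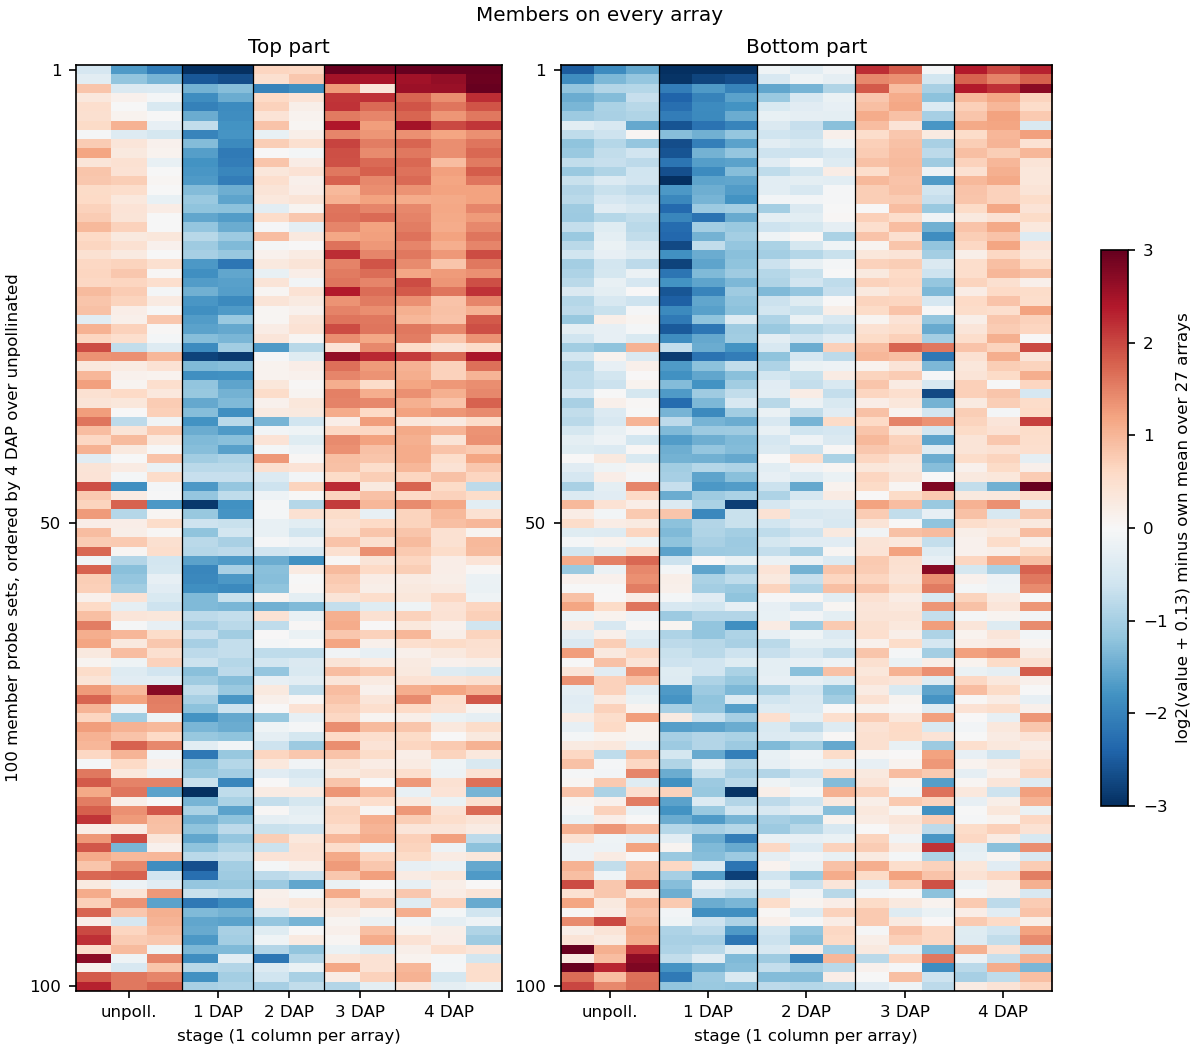
Each row is 1 of the 100 members and each column 1 array, with the top part on the left and the bottom part on the right; colour gives log2(value + 0.13) minus the member's mean over the 27 arrays, and rows run from the most to the least regained by 4 DAP. The 1 DAP columns are mostly blue, as the choice of members requires, 2 DAP is intermediate, and replicate 3 of the bottom part at 3 DAP (the last of its 3 columns) is paler or bluer than its neighbours in most of the upper rows.

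At 1 DAP the median member was lower than before pollination by 1.75 log2 units in the top part (log2 difference -1.75) and by 1.12 in the bottom part (log2 difference -1.12). Every 1 DAP array was below every unpollinated and every 4 DAP array for 92 members in the top part and 74 in the bottom part, and for 72 in both. Over all probe sets tested this held for 6.19% in the top part, 3.24% in the bottom part and 1.33% in both; since the choice used these arrays, nothing is read from the contrast. At the edge of the set the last member inside, LOC9267250, scored 0.816, and the first probe set outside, of LOC4350255, scored 0.815, so the edge is not a gap. The highest score was 2.08 and the median 1.04.

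The deepest dip by score belonged to LOC4352021, which the tables give no name. Its values in the top part were 11.7, 12.1 and 9.21 unpollinated, 0.549 and 0.512 at 1 DAP, 4.45 and 3.53 at 2 DAP, 29.0 and 22.4 at 3 DAP, then 19.9, 15.4 and 25.5 at 4 DAP. In the bottom part they were 3.08, 4.90 and 3.36 unpollinated, 0.525, 0.883 and 0.991 at 1 DAP, 1.92, 3.18 and 2.58 at 2 DAP, 9.19, 8.60 and 0.939 at 3 DAP, then 6.26, 9.79 and 5.94 at 4 DAP. The 1 DAP arrays were the lowest in the top part by a wide margin, and in the bottom part only replicate 3 of 3 DAP reached down to them. In the RefSeq gene order LOC4352021 lies next to LOC4352016, with 0 protein-coding genes between them, and 1 such gene separates it from RBCS1, a small subunit gene of Rubisco. The 3 probe sets assigned jointly to these genes cannot be given to any 1 of them. The brightest probe set that the table gives to RBCS1 alone stayed between 0.05 and 0.09 in all 10 group means and did not pass the filter.

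Next by score came LOC4325791 (score 1.94) and LOC4347585 (1.73). LOC4325791 varied within groups, with 3.86, 8.41 and 0.628 in the unpollinated top part, where the lowest array was close to the higher of the 1 DAP values of 0.207 and 0.587. LOC4347585 was tighter, with 0.647 and 0.591 at 1 DAP, against 4.70, 4.02 and 3.83 unpollinated, in the top part. The remaining members of the 25 highest-scoring with a gene scored between 1.14 and 1.53, among them LOC4345962 (1.53), LOC4347395 (1.51), LOC4324548 (1.49), LOC4324933 (1.48), LOC4324705 (1.46), LOC4343047 (1.42), LOC4343604 (1.33), LOC9268627 (1.32), LOC4328869 (1.31), LOC4332069 (1.31), LOC4334132 (1.25), LOC4332353 (1.25), LOC4334840 (1.23), LOC4344001 (1.19), LOC9271497 (1.17), LOC4332887 (1.15) and LOC4335962 (1.14).

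Among the genes of the light reactions, OEE3 had 2.97 and 3.06 at 1 DAP in the top part, against 22.3, 12.1 and 11.9 unpollinated. Its bottom arrays had 3.02, 3.68 and 4.52 at 1 DAP, against 6.47, 7.52 and 11.1 unpollinated. The groups did not overlap in either part, and the dip was deeper in the top part. RCABP69 had 2.58 and 1.65 at 1 DAP in the top part, against 11.1, 8.48 and 7.17 unpollinated, and 0.913, 1.46 and 2.05 in the bottom part, against 2.73, 3.54 and 2.86. PETE, the brightest of the named members here, had 9.58 and 7.82 at 1 DAP in the top part, against 29.2, 31.9 and 26.5 unpollinated. PSAH scored 0.85, near the edge, with 1.12 and 1.33 at 1 DAP in the top part, against 4.76, 3.66 and 3.30 unpollinated. For these genes too no 1 DAP array of the top part reached an unpollinated one.

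The 3 ferredoxin probe sets scored 0.91 to 1.12 and the 3 of rca 1.04 to 1.24. Other tested probe sets of these genes fell outside the set, 1 of ferredoxin at 0.25 and 1 of rca at 0.77, and 1 of PSY1 scored -0.05. The brightest rca probe set had 1.48 and 0.529 at 1 DAP in the top part, against 9.01, 7.03 and 7.03 unpollinated. Rubisco activase differed from the light-reaction genes in what followed: its top arrays were at 2.45 and 1.93 at 2 DAP, 4.44 and 2.44 at 3 DAP, then 6.16, 3.41 and 7.94 at 4 DAP, so that only 1 of 7 later arrays reached the lowest unpollinated value. ALDP had 2.18 and 1.42 at 1 DAP in the top part, against 13.2, 5.51 and 9.11 unpollinated, in the brighter of its 2 probe sets.

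Outside the photosynthetic machinery, the brighter PSY1 probe set had 0.689 and 0.974 at 1 DAP in the top part, against 6.04, 2.27 and 2.04 unpollinated. The bottom arrays of PSY1 had 0.569, 1.49 and 1.04 at 1 DAP, against 2.10, 2.22 and 6.07. LIR1 (score 1.29) varied widely within groups. It had 0.594 and 1.53 at 1 DAP in the top part, against 11.4, 11.8 and 2.22 unpollinated, and ended at 3.99, 4.28 and 0.934 at 4 DAP, where 1 array lay between the 1 DAP values. OsTrxm5 and OsBBD2 scored up to 1.12 and 0.85, and the OsBBD2 value of 3.77 on replicate 1 of the bottom part at 1 DAP lay inside the unpollinated range of 2.50 to 4.27. A brighter OsBBD2 probe set (mean value 13.7, against 4.17 for the member) scored 0.49, outside the set.

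OsEXPA1 had the deepest fall of any member in the bottom part. Its values there were 14.3, 6.19 and 8.95 unpollinated, 0.252, 0.338 and 0.406 at 1 DAP, 0.661, 0.528 and 0.615 at 2 DAP, 1.29, 1.14 and 0.228 at 3 DAP, then 0.616, 2.67 and 0.369 at 4 DAP. All 12 arrays after pollination stayed below all 3 unpollinated ones, so in the bottom part OsEXPA1 mainly fell, and its 4 DAP mean was -3.21 log2 from the unpollinated mean. In the top part the same probe set had 1.29, 0.795 and 2.20 unpollinated, 0.599 and 0.578 at 1 DAP and 2.44, 1.14 and 1.73 at 4 DAP, a shallow dip that was regained.

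**Figure D2:**
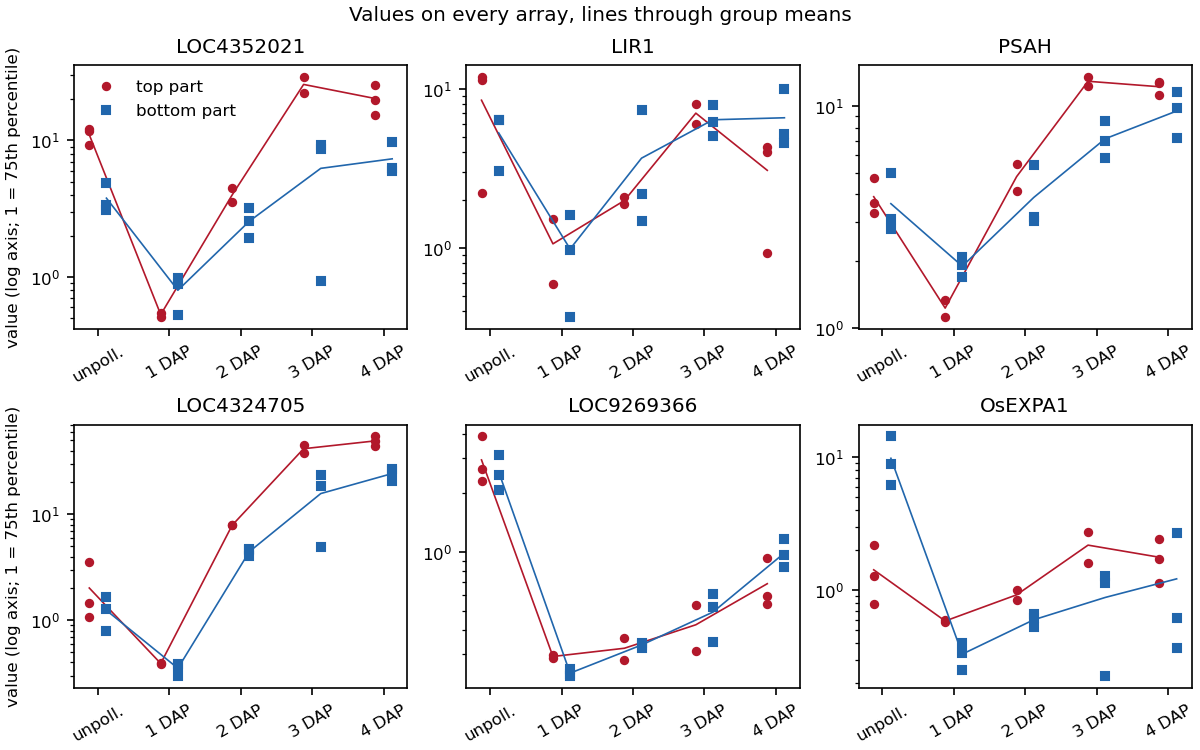
Values of 6 members on every array (log axis, 1 equals the 75th percentile of the array), with circles for the top part, squares for the bottom part and lines through group means. LOC4352021 and PSAH dip and come back, and LOC4324705 ends far above where it began. LIR1 comes back in the bottom part but ends below its start in the top part (log2 difference -1.35). LOC9269366 regains only part of its level, and OsEXPA1 stays low in the bottom part. Replicate 3 of the bottom part at 3 DAP is the low square for LOC4352021, LOC4324705 and OsEXPA1.

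To see whether the low day 1 value recurs on arrays that did not choose the probe sets, the rule was applied again without the arrays of 1 replicate number, and those arrays were then read. Without replicate 1, 100 probe sets were chosen, of which 74 are among the members. On the replicate 1 arrays the 1 DAP value was below both the unpollinated and the 4 DAP value for all 100 of them in the top part and for 89 in the bottom part, and 89 were lowest in both. Over all probe sets tested it was so for 29.3% in the top part, 30.5% in the bottom part and 10.6% in both. Held out in turn, replicate 2 gave 77 in the top part (23.1% of all tested) and 76 in the bottom part (34.0%), and both parts together gave 73 (11.4%). Replicate 3 could be read in the bottom part only, where 94 were lowest at 1 DAP (38.4%). The numbers are used here only to name arrays, and arrays of a group may share their source.

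**Figure D3:**
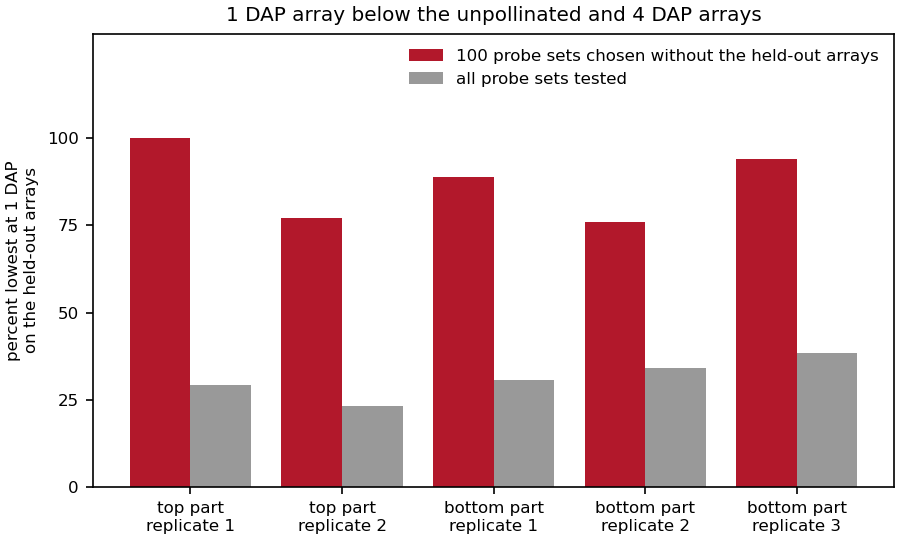
Percent of probe sets whose 1 DAP array lay below the unpollinated and 4 DAP arrays of the same, held-out replicate number, for the 100 chosen without those arrays (red) and for all probe sets tested (grey). The red bars run from 76 to 100 and the grey ones from 23.1 to 38.4.

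Taking the fall between the unpollinated stage and 1 DAP as 100%, the median member of the top part had regained 69.7% of it at 2 DAP, 136% at 3 DAP and 121% at 4 DAP. For the bottom part these were 74.8% at 2 DAP, 119% at 3 DAP and 130% at 4 DAP, and 140% at 3 DAP without replicate 3. At 2 DAP 94 members of the top part and 99 of the bottom part were above their 1 DAP mean, as were 49.0% and 47.7% of all probe sets tested, but the 1 DAP means were chosen to be low. The remaining 6 of the top part and 1 of the bottom part were lowest at 2 DAP.

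The top part had 50 members highest at 3 DAP, 25 unpollinated, 24 at 4 DAP and 1 at 2 DAP. The bottom part had 56 highest at 4 DAP, 23 unpollinated and 21 at 3 DAP, but without replicate 3 of 3 DAP it had 50 highest at 3 DAP, 26 at 4 DAP and 23 unpollinated. Members whose group mean increased on each day between 1 and 4 DAP numbered 26 in the top part and 64 in the bottom part, or 36 in the bottom part without that array. The stage of the highest level in the bottom part thus turned on 1 array, and these counts of group means carry no test.

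By 4 DAP the members had ended at different levels relative to the unpollinated ovary. In both parts 13 members, 12 of them of 1 gene each and 1 with no gene in the table, stood at least 2-fold above it, and another 41 stood above it by less in 1 or both parts. A further 24 were above it in 1 part only, 19 were below it in both, and 3 were at least 2-fold below it in both. Log2 differences of 4 DAP over unpollinated ran from -1.91 to 4.69 in the top part and from -3.21 to 4.20 in the bottom part.

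LOC4324705 had the largest log2 difference of 4 DAP over unpollinated in both parts (4.69 in the top part and 4.20 in the bottom part). In the top part its values were 3.52, 1.46 and 1.08 unpollinated, 0.392 and 0.391 at 1 DAP, 7.93 and 7.87 at 2 DAP, 45.0 and 38.3 at 3 DAP, then 44.6, 49.3 and 54.4 at 4 DAP. In the bottom part 1 DAP held 0.390, 0.368 and 0.298 and 4 DAP 26.8, 20.6 and 25.5, with 0.784, 1.28 and 1.66 unpollinated. From 2 DAP on every array of either part was above every unpollinated array of that part. The member probe set of LOC4343604 was alike. It ended at 32.2, 34.5 and 43.2 in the top part and 19.0, 15.6 and 19.3 in the bottom part. Its identifier begins like that of the LOC4324705 probe set. They end in _x_at and _a_at, which by design can match several transcripts, and whether they share signal was not tested. Other tested probe sets of LOC4343604 scored 0.32, 0.26 and 0.14 and fell outside the set. The one at 0.32 was brighter than the member. LOC4328903 behaved otherwise on the second day: in the top part it was at 0.0727 and 0.0993 at 2 DAP, below its 1 DAP values of 0.177 and 0.205, and reached 4.72, 4.77 and 7.73 at 4 DAP. PSAH and RCABP69 were the named genes in this group, PSAH with 12.8, 11.2 and 12.7 at 4 DAP in the top part and RCABP69 with an average of 19.8 ± 2.47 (SD, n = 3).

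At the other end, LOC9269366, LOC4352286 and LOC4338976 were the 3 members at least 2-fold below the unpollinated level at 4 DAP in both parts. LOC9269366 had 0.924, 0.543 and 0.592 at 4 DAP in the top part, against 3.89, 2.30 and 2.66 unpollinated, and 0.839, 0.962 and 1.16 in the bottom part, against 3.14, 2.08 and 2.48. No 4 DAP array reached an unpollinated one. Other tested probe sets of LOC9269366, which are dimmer, scored 0.20 and 0.01 and fell outside the set. LOC4338976 was far more variable, with 40.9, 5.72 and 17.5 in the unpollinated top part, and its groups overlapped. PSY1 and 2 of the 3 rca probe sets were below in both parts by less than 2-fold, and the third rca probe set was mixed.

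**Figure D4:**
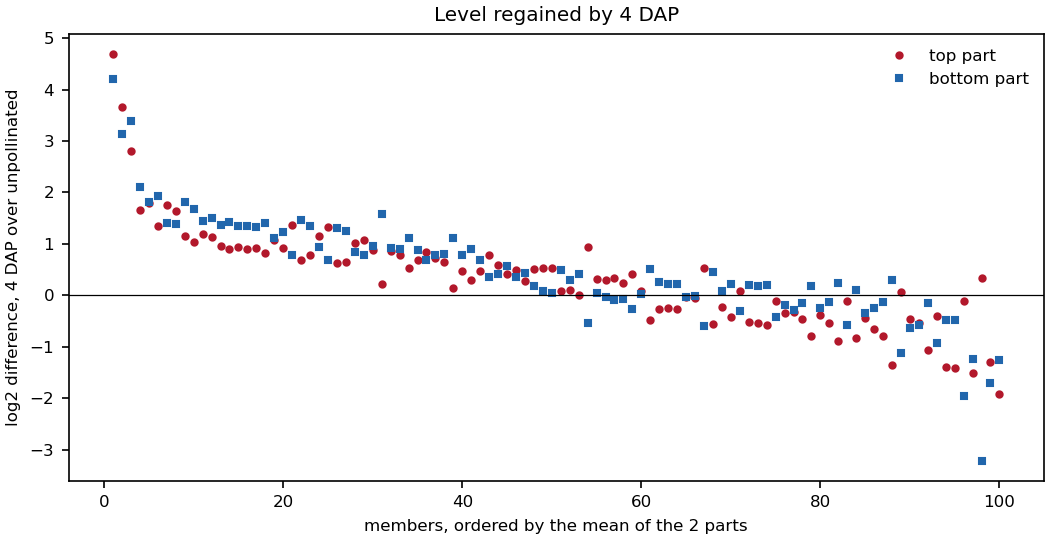
Log2 difference of 4 DAP over unpollinated for each member, with circles for the top part and squares for the bottom part, members ordered by the mean of both. Most points lie within about 2 units of 0, 3 members stand above, and 1 square, OsEXPA1 in the bottom part at -3.21, stands alone below.

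The change between 2 and 3 DAP, which the score did not use, was tested in each part with limma across all 29332 probe sets, two-sided, with Benjamini-Hochberg adjustment and calls at adjusted p below 0.05. Members were chosen to be higher at 4 DAP than at 1 DAP, so a rise on a day between is favoured by the choice. The direction of the change is therefore not independent of it. In the top part 14 members rose and 0 fell (1.44% of all probe sets tested were called higher and 0.760% lower). A change above 0 was held by 98 of 100, as by 53.5% of all tested. The median change of the members was 1.08 log2, against 0.03 for all tested. Among those that rose was PSAH, with 13.5 and 12.4 at 3 DAP, against 4.17 and 5.46 at 2 DAP (log2 change 1.42 ± 0.29 SE, adjusted p = 0.0099, limma). LOC4352021 had 29.0 and 22.4 at 3 DAP, against 4.45 and 3.53 at 2 DAP (2.65 ± 0.63, adjusted p = 0.0265, limma). LOC4328903 had 1.85 and 0.917 at 3 DAP, against 0.0727 and 0.0993 at 2 DAP (2.74 ± 0.57, adjusted p = 0.0099, limma), and since its 2 DAP values lie below the pseudocount of 0.13 the size of that change depends on it (1.64 to 3.32 over the alternatives). LOC4324705 rose by 2.38 ± 0.51 and LOC4341378 by 1.86 ± 0.30 (adjusted p = 0.0121 and 0.0013, limma). For all 5 the arrays of the days did not overlap. OEE3, at 30.9 and 28.1 against 11.8 and 12.1, missed the call (1.29 ± 0.35, adjusted p = 0.0578, limma), and the 3 rca probe sets had changes of 0.48 to 0.57 and were not called. These 14 calls rest on 2 arrays a day: without replicate 1 or 2 of 2 DAP or replicate 1 of 3 DAP 2 members were called in each case, and without replicate 2 of 3 DAP 7. Without the 3 bottom arrays that stand apart, which enter through the shared estimate of spread, 38 were called. The share of all probe sets called in these fits is not given. The 18S ribosomal RNA control moved with this comparison, at 23.2 to 33.7 on the top arrays of 3 DAP, against 0.503 to 22.4 on those of 2 DAP, and with it as a covariate 12 members were called.

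No such call was made in the bottom part, where 0 members passed in limma between 2 and 3 DAP (0.0511% of all probe sets tested were called higher and 0.0170% lower). A change above 0 was held by 94 members, as by 54.9% of all tested, and the choice favours that direction. An unadjusted p below 0.05 in limma was reached by 33 members, but the share over all probe sets is not given. The median change of the members was 0.60 log2, against 0.03 for all tested. The lack of calls turned on replicate 3 of 3 DAP: without it 18 members were called higher, without replicate 3 of 2 DAP 3, and without the 3 arrays that stand apart 22, with a median of 1.03. Shares over all probe sets in these fits are not given. For OEE3 the arrays were at 17.6, 18.9 and 10.8 at 3 DAP, against 7.54, 6.90 and 13.1 at 2 DAP, with replicate 3 the lowest at 3 DAP and the highest at 2 DAP. For LOC4324705 they were 23.8, 18.5 and 4.89 at 3 DAP, against 4.62, 4.02 and 4.69 at 2 DAP, so that replicate 3 alone stayed at the 2 DAP level.

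Whether the 2 to 3 DAP change differed between the parts was tested as an interaction in the same limma fit, and 0 members were called (0.00341% of all probe sets tested were called in each direction). An unadjusted p below 0.05 in limma was reached by 4 members, and the share over all probe sets is not given. The change was larger in the top part for 87 members, as for 48.4% of all tested. The median difference over all members was 0.50 log2, against -0.01 over all tested. Without the 3 arrays that stand apart it was larger for 58 members, with a median of 0.08. A difference between the parts in this change was therefore not shown.

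**Figure D5:**
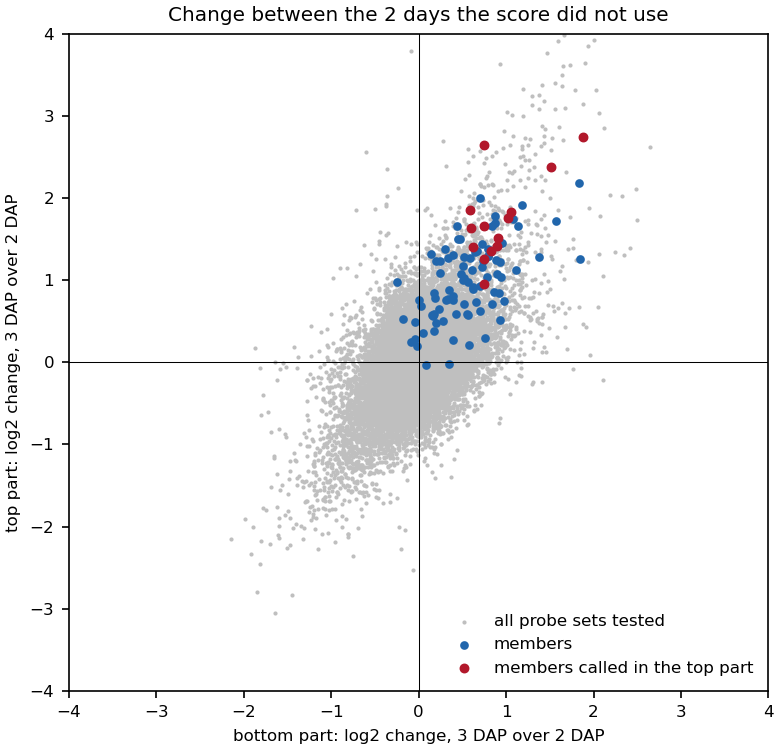
Log2 change of 3 DAP over 2 DAP in the bottom part (x axis) and the top part (y axis) for all probe sets tested (grey; 13 lie outside the axes), for the members (blue) and for the 14 members called in the top part (red). Of the members 94 lie right of 0 and 98 above 0, as do 54.9% and 53.5% of all probe sets tested.

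Setting the top part against the bottom part at 2 DAP, 0 members were higher in the top part and 2 were lower in limma (0.368% of all probe sets tested were called higher and 1.12% lower). LOC4341378 had 0.333 and 0.234 in the top part, against 1.02, 1.01 and 0.845 in the bottom part (log2 difference -1.40 ± 0.28 SE, adjusted p = 0.0087, limma). LOC4325373 had 0.281 and 0.216, against 0.880, 0.769 and 0.932 (-1.39 ± 0.34, adjusted p = 0.0398, limma). Leaving out either top array at 2 DAP ended both calls, and leaving out any 1 bottom array of 2 DAP left 1. At 3 DAP LOC4341378 had 1.19 and 1.55 in the top part, against 2.08, 1.67 and 0.964 in the bottom part, and the parts overlapped.

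At 3 DAP 23 members were higher in the top part and 0 were lower (3.79% of all probe sets tested were called higher and 1.57% lower), with a median log2 difference of 0.82 over the members and 0.01 over all tested. The members stood higher in the top part before pollination too. There the array medians of log2 value minus each member's own mean were 0.80, 0.35 and 0.11 in the top part, against -0.31, -0.13 and 0.04 in the bottom part. That earlier difference was not tested. LOC4352021 had 29.0 and 22.4 in the top part, against 9.19, 8.60 and 0.939 in the bottom part (2.53 ± 0.58 SE, adjusted p = 0.0143, limma). The next 3 by size were the probe sets shared by LOC4352021, LOC4352016 and RBCS1, at 2.21, 1.95 and 1.94, the last with 6.81 and 3.99 in the top part, against 1.75, 1.82 and 0.602 in the bottom part. RCABP69 had 27.2 and 19.2, against 10.8, 12.1 and 3.25 (1.58 ± 0.40, adjusted p = 0.0240, limma). All 3 ferredoxin probe sets were called, the brightest with 25.7 and 24.9 in the top part, against 10.4, 11.6 and 3.31 in the bottom part (1.76 ± 0.48, adjusted p = 0.0343, limma). Every top array was above every bottom array in each of these. The count at 3 DAP depended on single arrays, and the share of all probe sets called in the fits that follow is not given. Without replicate 3 of the bottom part it was 5, without replicate 1 of the bottom part 44, without replicate 1 of the top part 0 and without replicate 2 of the top part 10. Without the 3 bottom arrays that stand apart it was 7, with a median difference of 0.40, and a fit of just the 5 arrays compared gave 0. The 18S control also differed between the parts at 3 DAP, at 23.2 to 33.7 on the top arrays and 0.423 to 10.9 on the bottom arrays.

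Other genes of photosynthesis were looked up by name patterns, 1 probe set to a gene. The patterns did not match every such gene, and the members RCABP69 and OEE3 were missed. Of the 7 matched genes of light harvesting, photosystems and Rubisco that passed the filter, rca, PSAH and PETE are members. Of the other 4, CAB2R, LHCP (LOC4333359) and the Rubisco small subunit gene LOC4351966 scored 0.50, 0.50 and 0.52, and PSAG (LOC4337812), of photosystem I, scored -0.33. CAB2R (LOC4324599), a light-harvesting protein, averaged 31.2 unpollinated, 5.76 at 1 DAP, 39.3 at 2 DAP, 94.4 at 3 DAP and 88.7 at 4 DAP in the top part. Its bottom means were 13.9, 10.4, 30.8, 46.8 and 66.4 over the same stages, a dip too shallow for the set (score 0.50, rank 298). Of the 7 genes, 2 rose and 0 fell between 2 and 3 DAP in the top part, PSAH and LOC4351966, and 0 were called in the bottom part in limma.

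None of 9 chlorophyll and plastid genes and none of 7 circadian clock genes is a member. A score above 0 was held by 4 and 2 of them, against 18.6% of all probe sets tested. Of the chlorophyll and plastid genes, CHLH (score 0.70, rank 134) and PORA (0.61, rank 196) came nearest to the set. Heat shock proteins and factors contributed 0 of 44 genes and 12 scores above 0. The cell wall list gave 1 member, OsEXPA1, of 48 genes, and the redox list the 2 probe sets of OsTrxm5, of 61 genes. Members are 100 of the 29332 probe sets tested, so nothing is read from few or no members in lists of these sizes.

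Markers of the tissues in the sample moved as follows. Green pericarp was read with 4 light-harvesting and Rubisco small subunit genes, 3 of them past the filter. The probe sets read for them are not members, but RBCS1, among these genes, is also assigned 3 members jointly with LOC4352021 and LOC4352016. The summed level of the 4 genes had medians of 42.1 unpollinated, 10.7 at 1 DAP, 56.9 at 2 DAP, 147 at 3 DAP and 144 at 4 DAP in the top part. The bottom part had 16.8 to 21.0 unpollinated, 7.52 to 19.3 at 1 DAP, 37.8 to 42.2 at 2 DAP, 19.7 to 91.4 at 3 DAP and 71.3 to 105 at 4 DAP. The top part's sum was thus lower at 1 DAP and higher afterwards, as the members were, while the bottom part's 1 DAP values (median 16.9) overlapped the unpollinated ones and its values were higher at 2 DAP. The part of green tissue in the members' changes was not tested. The summed level of 3 endosperm markers stayed between 0.303 and 0.783 on every array up to 2 DAP. It then had a median of 6.09 at 3 DAP and 53.6 at 4 DAP in the top part and of 1.34 and 16.2 in the bottom part, while GLUA1 (LOC4327027), a storage protein, did not pass the filter. OSH1 (LOC4333973), a homeobox marker of the embryo region, averaged between 3.76 and 20.9 in the bottom groups and between 0.06 and 0.34 in the top groups. Its highest group mean was that of the unpollinated bottom part. ROC1 (LOC4344832), of the same marker list, went the other way, with means of 2.95 to 4.73 in the bottom groups and 5.17 to 7.25 in the top groups. VP1 (LOC4324314) averaged between 0.135 and 0.596 in all groups, and WOX9 (LOC4324824) did not pass the filter. MADS2 (LOC4325001), a lodicule marker, averaged 12.9 at 1 DAP in the bottom part, against 33.6 unpollinated. In the top part it averaged 1.40 at 1 DAP, against 11.9 unpollinated, and it came back in neither part. MADS16 (LOC4342047), of the same marker list, also fell, to 14.7 from 35.7 in the bottom part and to 0.513 from 1.88 in the top part. MADS4 (LOC4338842) averaged 3.69 at 1 DAP against 5.34 unpollinated in the bottom part. It did not fall in the top part, with 4.36 against 4.21.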

How the data were processed

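Values are the deposited intensity of each probe set, linear and divided by the authors by the 75th percentile of each array, as read from the values themselves. GCOS 1.3 was used, per the submitters' processing notes; how probes were summarised and background handled is not given in these labels, and the design had assumed globally scaled signals. The number of arrays limits the precision. Tests used log2(value + 0.13), 0.13 being the 20th percentile of rice values, in limma 3.58.1 (R 4.3.3): 1 fit of 10 group means on 27 arrays, empirical Bayes with trend, 29332 of 57258 rice probe sets. The 123 control probe sets were left out. Fold changes on this scale understate those of low values. Tables used Python 3.11.15, numpy 2.4.6, pandas 2.3.3 and matplotlib 3.10.9.

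Genes come from a probe table (22436 rice probe sets with 1 gene, 95 with several, 34727 with none; 17905 genes, all found in a RefSeq table used for names). Probe sets of related genes may share signal. Lists and markers were matched by patterns on symbols and synonyms, and for each gene the brightest probe set was read. Members and lists were chosen with earlier results of these data known. Named are the 25 highest-scoring members with a gene, every member with an informative name, the 4 largest called changes per direction and comparison, and the probe sets either side of the edge; LOC9269366, LOC4352286, LOC4338976, LOC4343604, LOC4331458, the 3 shared probe sets, CAB2R and the tissue markers were added after their values were seen. Alternatives were 2 pseudocounts, no filter, quantile normalization, fewer arrays, an 18S covariate, a replicate block and each array left out. The replicate numbers come from the sample titles. Bottom arrays of the same number at 2 and 3 DAP deviated together in all 3 pairs (r = 0.29, 0.58 and 0.70), so for that comparison they may pair the arrays; over all groups 52 of 111 same-numbered pairs had r above 0.1, and 67 of 216 differently numbered ones.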

Additional observations from a re-analysis of the deposited data

Results flagged for a closer look

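LOC4331458 moved in opposite directions in the parts between the unpollinated stage and 4 DAP, with no overlap between arrays in either. In the top part it had 2.93, 2.84 and 3.03 at 4 DAP, against 2.81, 1.67 and 1.70 unpollinated, a log2 difference of 0.53. In the bottom part it had 3.37, 2.71 and 2.41 at 4 DAP, against 5.62, 3.51 and 4.08 unpollinated, a log2 difference of -0.60. The top arrays were barely apart, at 2.84 for the lowest at 4 DAP against 2.81 for the highest unpollinated. The difference between the parts was not tested. LOC4331458 was the only one of the 100 members with this pattern, but the share over all probe sets tested is not given. Both stages were used in the choice of members, so nothing is read from the count.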

How the results depend on the processing

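Of the 100 members, 100 were chosen again with no filter, 94 with quantile normalization, 91 and 88 with pseudocounts of 0.05 and 0.5, 87 without bottom 4 DAP replicate 3, and 75 to 98 without any 1 array (75 without bottom 1 DAP replicate 1). Between 2 and 3 DAP in the bottom part, where 0 members were called, 22 were called without the 3 arrays that stand apart and 0 to 18 without single arrays. In the top part the 14 calls became 7 with quantile normalization, 22 with only the arrays compared, 38 without the 3 arrays that stand apart, and 2 to 7 without single arrays. Between the parts at 2 DAP the 2 calls became 1 with a pseudocount of 0.5, with no filter, with quantile normalization or with the 18S covariate, 4 without the 3 arrays that stand apart (3 higher, 1 lower), and 0 to 1 without single arrays. At 3 DAP the 23 calls became 13 with no filter, 14 with quantile normalization, 0 with only the arrays compared, 7 without the 3 arrays that stand apart, and 0 to 44 without single arrays. The interaction gave 0 calls under every alternative run. The changes of 8 members with the largest called changes were followed through the alternatives, and 0 reversed. Chosen after seeing the data, leaving out each bottom 3 DAP array in turn gave 17 to 50 members highest at 3 DAP, 26 to 61 at 4 DAP, and 36 to 58 increasing each day. Where an array left out leaves 1 in a group, that array is assumed to vary like the other groups. The cause of these differences was not tested. The share of all probe sets called under each alternative is not given, so a changed count may not be particular to the members.

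With a replicate block, which moved no count by over 1.5 times, the calls were 0 and 15 for 3 over 2 DAP in the bottom and top parts, 2 and 20 between the parts at 2 and 3 DAP, and 0 for the interaction. The search for promoter motifs could not be run, because promoter sequences were not used here.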

Other observations

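Other probe sets of the member genes were outside the set. There were 15 tested, of 12 genes, with a median score of 0.26 (range -0.05 to 0.77). Of these 14 had a score above 0. The 11 genes with several probe sets among the members all chosen for high scores, had member scores within 0.46 of each other, the widest being LOC4347395 (1.04 and 1.51).

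Probe sets whose identifiers end in _a_at, _s_at or _x_at, which by design can match several transcripts, made up 13, 14 and 17 of the 100 members, against 4.54%, 7.05% and 15.6% of all tested. No pair of the 75 genes that have a member of their own is adjacent in the RefSeq order of protein-coding genes (0 pairs). This count leaves out the 3 members shared by LOC4352021, LOC4352016 and RBCS1, of which LOC4352016 lies next to LOC4352021.

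Across the 100 members, the difference of 4 DAP over unpollinated in the top part correlated with that in the bottom part (Pearson r = 0.77), and the depth of the fall at 1 DAP less so (r = 0.21). Over all 29332 probe sets tested the values were 0.70 and 0.73. These are descriptions across probe sets, which are not independent and share their arrays, and the choice of members limits the range of the fall.

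No member fell in the lists for jasmonate and defence (46 genes), auxin (53), gibberellin (14), cytokinin (24), ethylene (20), cell cycle and histones (51) or cytosolic ribosomal proteins (28). With 100 members among 29332 probe sets tested, few or none would be expected in lists of these sizes, and nothing is read from it.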
